A study of Mus musculus with 7 samples.

Results

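Glucose enters islet cells through transporters of the SLC2 family, is phosphorylated, and is broken down in glycolysis and the mitochondria. In beta cells the ATP made in this way closes potassium channels and so sets off insulin release, while alpha and delta cells release glucagon and somatostatin. The 7 genes described here, Slc2a2, Slc2a1, G6pc2, Pcx, Gpd2, Pfkfb2, and Ucp2, encode proteins of glucose uptake, the reversal of glucose phosphorylation, the regulation of glycolysis, pyruvate carboxylation, an NADH shuttle, and mitochondrial proton leak. They are 7 of 21911 protein-coding genes and were listed by name, with earlier results of these data known. For each gene, every distinct peak interval of 7 ATAC-Seq peak lists that overlapped the gene body or the 20 kb on either side was taken. These windows held between 33 and 114 of the 75860 to 518503 intervals in a list.

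In ATAC-Seq, the Tn5 transposase cuts and tags accessible chromatin, and MACS2 reports such places as peaks. The mice were triple transgenic. They all carried mIns1-H2b-mCherry, a nuclear red reporter under an insulin promoter that marks beta cells, and Rosa-LSL-YFP, a yellow reporter that a Cre recombinase switches on, and they carried Gcg-Cre for alpha or Sst-Cre for delta cells. The libraries were 2 alpha, 3 beta, and 2 delta, each from cells sorted by FACS from islets of healthy mice pooled by sex. The labels give no age. YFP marks a cell in which Cre was active at any time, so an alpha or delta label rests on the lineage as well as on the sort. The replicates are named as separate biological samples, and all p-values measure the spread between these pools. The study compared cell types of the same animals, and the labels do not say which libraries share mice. The tests treat all 7 libraries as independent, which they may not be. In sorted bulk cells, a larger share of cells with open chromatin and more opening in each cell cannot be told apart.

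Each of the 3 beta lists was deposited under a name that says alpha or delta where its label says beta, and the labels were used. The same names carry a sequencing lane code. Both alpha libraries and beta 1 share a code, and both delta libraries, beta 2, and beta 3 share the other, so alpha and delta cells cannot be told apart from the lane. Beta cells were therefore also compared within each code, with 1 beta against 2 alpha and 2 beta against 2 delta libraries. Of 6 alpha marker genes, both alpha libraries had a strong peak at a start of all 6, the beta libraries at 0 to 1, and the delta libraries at 1 to 2. Of 5 delta markers, both delta libraries had 4, the beta libraries 0 to 1, and the alpha libraries 2. The delta marker counted for beta 1 was Sst, the somatostatin gene, at rank 22879. Sst was the marker missed by both delta libraries, with rank 130978 in delta 1 and 64898 in delta 2. No other library listed a start peak at Sst. The 6 beta markers did not separate the libraries, with 2 to 4 in beta, 2 to 3 in alpha, and 1 to 2 in delta cells. At Ins1, the peak had rank 6972 in beta 1, 52960 in beta 2, and 13849 in beta 3, and beta 2 listed no peak at Ins2. Defining markers of other cells were near 0, with strong start peaks of 0 to 1 of 5 acinar, 0 to 1 of 4 duct, 0 of 4 endothelial, and 0 of 4 immune genes in any library.

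Lists of such unequal length were put on one scale by rank. The peak of lowest p in a list has rank 1, and a peak is called strong when it is among the 25000 of lowest p in its own list. The value of -log10 p at that rank ran from 4.84 in beta 1 to 8.77 in delta 1, and the lowest -log10 q of any strong peak was 2.12. Beta 1 had the longest list but only 25903 peaks at a -log10 q of at least 2, against 32047 to 52057 in the others. A peak list holds no reads outside its peaks, so an absent peak means only that none was listed.

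The sequences below, from the RefSeq genome GRCm38.p6, carry the contrasts that follow. They are the 250 bases upstream of the G6pc2 start that was open in beta cells and of the Slc2a2 coding start that no list held, 3 distal regions whose ranks are described by cell type, and the 250 bases upstream of an open and of an unlisted start of Pfkfb2. Capitals mark matches, on either strand, to GTTAAT of the HNF1 core, TGCTGAC of the MAF core, TAATTA of the homeodomain core, CAGATGG of the NeuroD1 E-box, CACGTG of the USF and ChREBP E-box, and GGGCGG of the GC box. TGTTTAC of the FOXA core, TATAAA of the TATA box, TGACGTCA of the CRE, and GTTGCCA of the RFX core were searched as well. A match is a description of the letters only.
G6pc2 open start, chr2:69219721-69219970, plus strand: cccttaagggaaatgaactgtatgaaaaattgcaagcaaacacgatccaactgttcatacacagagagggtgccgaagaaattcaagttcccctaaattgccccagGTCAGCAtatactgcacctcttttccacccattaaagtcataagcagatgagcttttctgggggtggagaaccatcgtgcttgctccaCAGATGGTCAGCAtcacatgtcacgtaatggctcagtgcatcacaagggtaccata
Slc2a2 coding start, chr3:28697653-28697902, plus strand: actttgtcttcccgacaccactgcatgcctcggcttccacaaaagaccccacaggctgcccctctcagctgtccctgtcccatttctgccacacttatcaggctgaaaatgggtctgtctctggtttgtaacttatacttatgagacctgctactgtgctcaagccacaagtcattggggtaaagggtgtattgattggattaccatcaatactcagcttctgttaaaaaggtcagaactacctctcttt
Slc2a2 upstream region, chr3:28682093-28682392, plus strand: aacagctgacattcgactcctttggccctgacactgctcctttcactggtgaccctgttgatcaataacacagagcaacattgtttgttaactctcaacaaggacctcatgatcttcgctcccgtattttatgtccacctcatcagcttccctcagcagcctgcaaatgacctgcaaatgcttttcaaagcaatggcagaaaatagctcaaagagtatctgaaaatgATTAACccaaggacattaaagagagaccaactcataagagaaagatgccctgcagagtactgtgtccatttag
Slc2a2 downstream region, chr3:28734807-28735106, plus strand: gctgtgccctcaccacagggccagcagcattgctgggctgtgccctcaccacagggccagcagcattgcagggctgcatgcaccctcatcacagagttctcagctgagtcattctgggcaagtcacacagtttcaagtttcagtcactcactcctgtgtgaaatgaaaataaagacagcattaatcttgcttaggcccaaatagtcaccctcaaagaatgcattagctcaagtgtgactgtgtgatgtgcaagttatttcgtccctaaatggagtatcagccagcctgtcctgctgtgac
Gpd2 intron region, chr2:57251966-57252265, plus strand: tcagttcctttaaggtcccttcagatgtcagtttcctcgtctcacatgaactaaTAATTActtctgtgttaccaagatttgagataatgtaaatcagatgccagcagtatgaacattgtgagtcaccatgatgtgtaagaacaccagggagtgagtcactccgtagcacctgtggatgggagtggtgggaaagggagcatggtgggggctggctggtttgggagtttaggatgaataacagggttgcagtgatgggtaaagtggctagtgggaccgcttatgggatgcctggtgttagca
Pfkfb2 open start, chr1:130715815-130716064, minus strand: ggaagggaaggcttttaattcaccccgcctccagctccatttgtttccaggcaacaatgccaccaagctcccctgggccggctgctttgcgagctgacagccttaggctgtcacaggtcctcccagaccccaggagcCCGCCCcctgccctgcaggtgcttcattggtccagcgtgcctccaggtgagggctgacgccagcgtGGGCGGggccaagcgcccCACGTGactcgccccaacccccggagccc
Pfkfb2 unlisted start, chr1:130714577-130714826, minus strand: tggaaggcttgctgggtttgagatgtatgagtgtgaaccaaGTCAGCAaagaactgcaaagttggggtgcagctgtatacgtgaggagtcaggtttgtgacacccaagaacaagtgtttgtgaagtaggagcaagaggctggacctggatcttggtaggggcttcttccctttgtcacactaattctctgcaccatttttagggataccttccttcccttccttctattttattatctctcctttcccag

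The 250 bases before the G6pc2 start held 2 matches to the MAF core, at bases 107 and 201, and 1 to the NeuroD1 E-box at base 195, which overlaps the second of them, with bases counted from 1 at the 5′ end. Over 300 bases, the MAF core was in 4.67% and this E-box in 5.30% of 32851 promoters. The upstream bases of the Slc2a2 start held none of the 10 motifs. The upstream region of Slc2a2 held an HNF1 core, found in 9.66% of 32460 regions of the same length that were strong in at least 2 libraries. The Gpd2 intron region held a homeodomain core, found in 6.89% of them, and the Slc2a2 downstream region held no match. Before the open start of Pfkfb2 lay 2 GC boxes and a CACGTG, letters found in 35.7% and 7.15% of promoters, and before its unlisted start a MAF core.

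Strong peaks lay in the window of each of the 7 genes in every library, and no adjusted p for a difference between cell types was low. Summed over the 7 windows, the libraries had 18 to 23 strong peaks, with 19 and 22 in alpha, 18, 23, and 21 in beta, and 19 in both delta libraries. An exact permutation test over all 210 ways to assign the 7 libraries to the cell types was run on the count of strong peaks in the window of 18510 protein-coding genes. Its smallest possible p is 0.00952, and 4.51% of these genes had p under 0.05. Among the 7 genes, Pfkfb2 alone did, and the lowest p after Benjamini-Hochberg adjustment over all genes, by the same exact permutation test, was 0.889. With a smallest possible p of 0.00952, a gene could pass this adjustment only if a large share of all genes reached that value. The adjusted p therefore cannot decide whether a single gene differed.

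**Figure D1:**
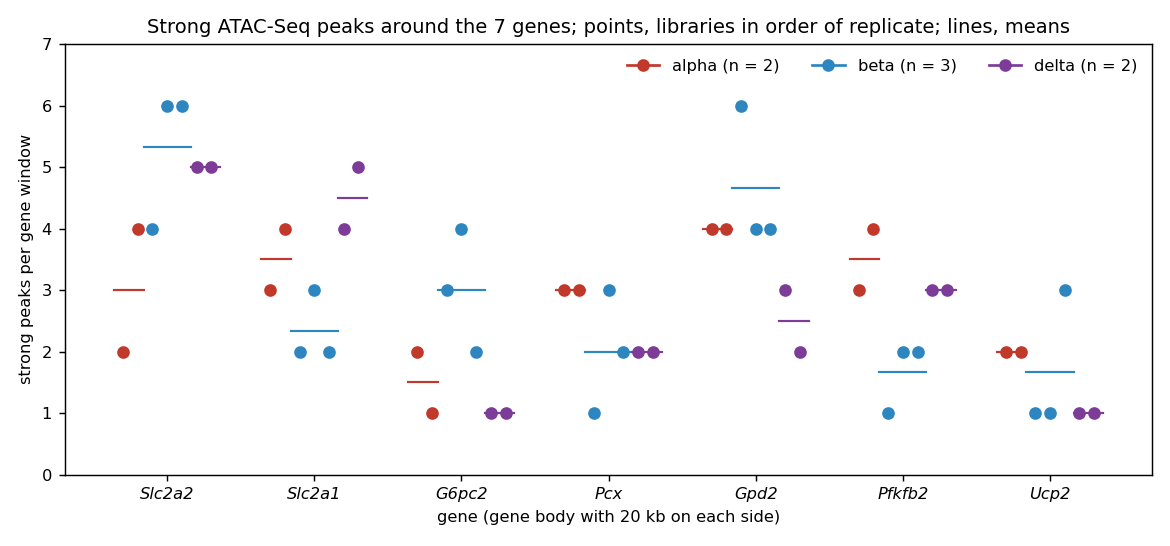
Strong peaks (vertical axis, number) in the window of each gene (horizontal axis), with a point for each alpha, beta, and delta library in order of replicate and a line at each mean. The beta points of Pfkfb2, at 1 and 2, lie below all others of that gene, and the delta points of Gpd2, at 2 and 3, lie below all others of that gene.

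In the window of Pfkfb2, the alpha libraries had 3 and 4 strong peaks, the beta libraries 1, 2, and 2, and the delta libraries 3 and 3. Beta was lower than every other library, both overall and within each lane code (exact permutation test, p = 0.0286, adjusted p = 0.889), a pattern found in 3.52% of all genes. The opposite, beta above all others, was found in 1.22%. The weakest strong peak had rank 24081 in alpha 1, 24067 in delta 1, and 24051 in delta 2, near the strong-peak limit. Without that peak, each of these libraries would be level with beta 2 and beta 3. The separation of beta in counts therefore depends on where the limit is set. The strong peaks of both delta libraries lay at a Pfkfb2 start shared with Gm29427, over the neighbour Yod1, and at a start of the neighbour AA986860. The contrast in counts can therefore not be given to Pfkfb2 alone. Without beta 1, the same exact permutation test gave p = 0.200, and its smallest possible p is then 0.0667. In the window of Gpd2, delta libraries had 3 and 2 strong peaks, alpha libraries 4 and 4, and beta libraries 6, 4, and 4. Delta lay below every other library, as in 0.729% of genes (exact permutation test, p = 0.0952). The opposite, delta above all others, was found in 2.12%. The remaining 5 genes overlapped between cell types. Slc2a2 had 2 and 4 in alpha, 4, 6, and 6 in beta, and 5 and 5 in delta cells. Slc2a1 had 3 and 4, then 2, 3, and 2, then 4 and 5 in the same order. For G6pc2, these were 2 and 1, then 3, 4, and 2, then 1 and 1. Pcx had 3 and 3, then 1, 3, and 2, then 2 and 2. Ucp2 had 2 and 2, then 1, 1, and 3, then 1 and 1. The exact permutation p of these 5 genes ran from 0.0857 for Slc2a1 to 0.657 for Ucp2.

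The chromatin at the transcript starts of these genes was open at few of the starts the annotation lists. GENCODE vM21 gives the 7 genes 27 separate starts when ends within 100 bp are joined. A peak within 250 bp was listed in all 7 libraries at 7 of these, in some libraries at 4, and in none at 16. A strong peak in at least 2 replicates was found at 7 starts for alpha cells, at 6 for beta cells, and at 7 for delta cells. Pcx, Gpd2, Pfkfb2, and Ucp2 had a strong start peak in every library, which makes 4 of 7 genes, against 28.6% of all protein-coding genes. None of the 7 genes lacked a listed start peak in every library, against 21.4% of all genes.

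**Figure D2:**
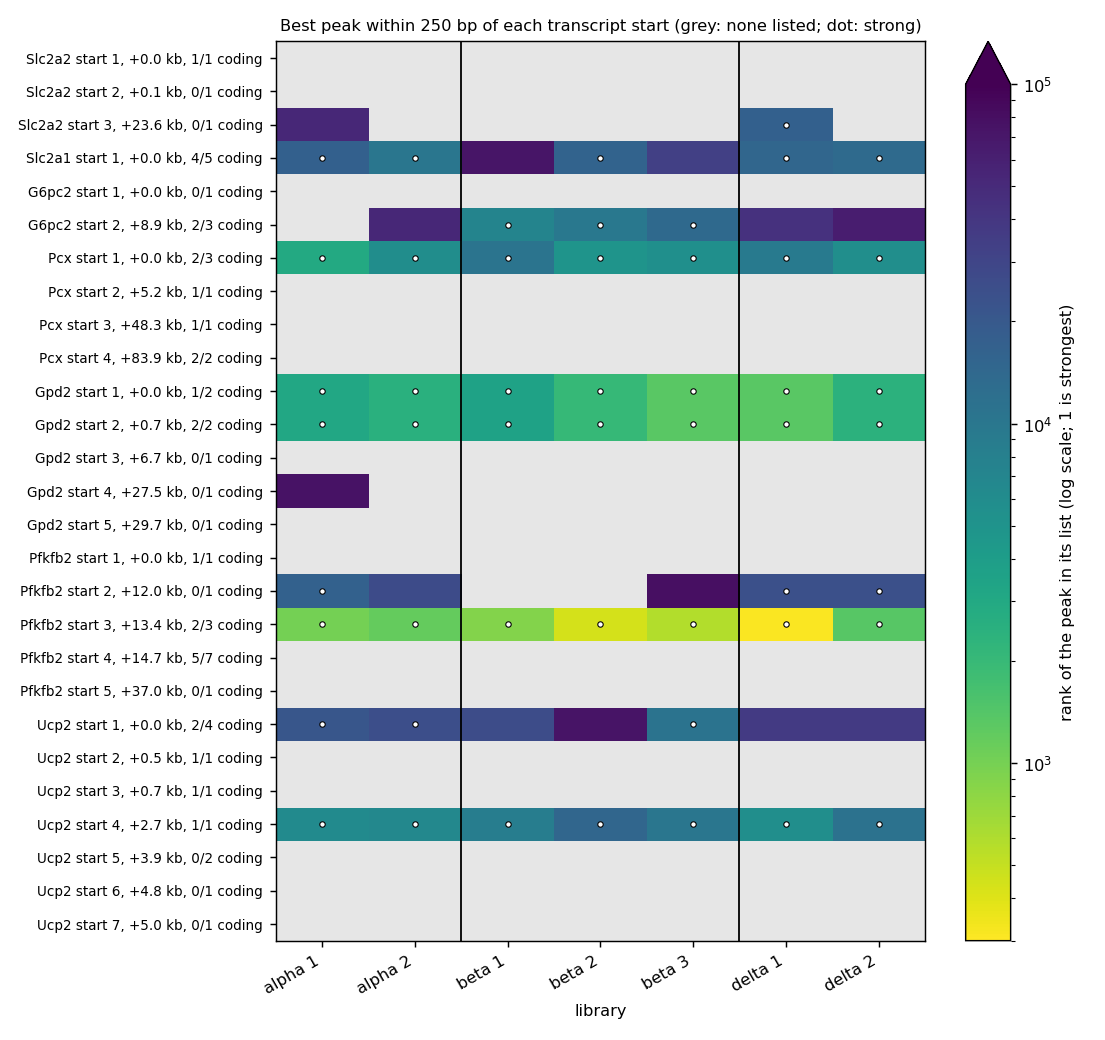
Rank of the best peak (colour, log scale) within 250 bp of each of the 27 transcript starts (rows, with the distance from the 5′ end of the gene and the coding share of its transcripts) in each library (columns). Grey cells have no listed peak and dots mark strong peaks. The second G6pc2 start is strong in the 3 beta columns only, and the Pfkfb2 start at 13.4 kb carries the strongest peaks.

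Starts with a peak in every list held more CpG in the median than unlisted starts. Over the 300 bases from 250 before to 50 after a start, the 7 starts listed in all libraries held 5 to 26 CpG, with a median of 16, and the 16 unlisted starts 0 to 11, with a median of 2.5. The median over all promoters was 7. The GC box was in 5 of the 7 and in 3 of the 16. Both first starts of Gpd2 were listed through the same peak, which does not hold the first of them, the start with 5 CpG. The ranges overlapped, starts of a gene share sequence, and no test was made.

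G6pc2, the islet glucose-6-phosphatase catalytic subunit, which returns glucose-6-phosphate to glucose, had a start peak that was strong in the beta libraries and weak or absent in the others. The gene record runs from chr2:69211073 to 69227841, but its first start belongs to a noncoding transcript and had no listed peak in any library. The coding transcripts begin 8.90 kb further on, at 69219971 to 69220028. The peak there had rank 7216 in beta 1, 9710 in beta 2, and 13628 in beta 3, with -log10 q of 7.15, 6.01, and 6.50. It had rank 52572 in alpha 2, 43327 in delta 1, and 62296 in delta 2, with -log10 q of 1.34, 2.88, and 1.42, and alpha 1 listed none. The 3 beta libraries were thus ahead of all others, which was also the case within each lane code. Beta was ahead in this way at 2.42% and behind at 11.4% of 15230 genes with a start peak. The exact permutation test on the rank, with absent peaks set to the length of the shortest list, gave p = 0.0190. The test was added after the lists were examined, 9.54% of these genes had p under 0.05, and the adjusted p of G6pc2 over all of them was 0.457 by this exact permutation test. Without beta 1, beta 2 and beta 3 were still ahead of all others, though the exact permutation test then cannot give a p below 0.0667. The merged region, chr2:69219602-69220071, was the only region in the windows strong in at least 2 beta libraries and in no other. Beta-selective regions made up 7.01% of all 32460 regions strong in at least 2 libraries. At a -log10 q of at least 2, delta 1 held a peak there too, and the region was no longer beta-selective.

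The rest of the G6pc2 window held 5 strong regions. One, at chr2:69205838-69206466, was strong in all 7 libraries, with ranks of 1717 to 5124, and lies at a start of the neighbouring gene Spc25. The other 4 were strong in 1 library each.

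Slc2a2 encodes GLUT2, the low-affinity glucose transporter of mouse beta cells. It lies at chr3:28697903-28731359 on the plus strand. Its coding start at 28697903 and the start 114 bp further on had no peak within 250 bp in any of the 7 full lists. The strong peaks of this gene lay elsewhere, in 9 regions, of which 6 were strong in at least 2 libraries and 0 in all 7. The 3 regions strong in 1 library include an intron region at 4.16 kb, chr3:28701922-28702208, which was strong in beta 3 at rank 14262, listed in beta 2 at rank 74944, and in no other list. The upstream region printed above, chr3:28681819-28682476, lies 15.8 kb before the start. Its peak had rank 8388, 14772, and 12031 in the beta libraries, 19013 and 15751 in the delta libraries, and 33714 and 45289 in the alpha libraries. The order ran from beta to delta to alpha without overlap, and beta was ahead within each lane code. Without beta 1, beta 2 and beta 3 were still ahead of all others. In geometric means, the alpha rank was 3.42 times and the delta rank 1.51 times that of beta. The exact permutation test gave p = 0.0190, with an adjusted p of 0.371 over the 17759 regions listed in all 7 libraries, of which 11.6% had p under 0.05. Of the 17 such regions in the windows, it was the only one under 0.05.

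**Figure D3:**
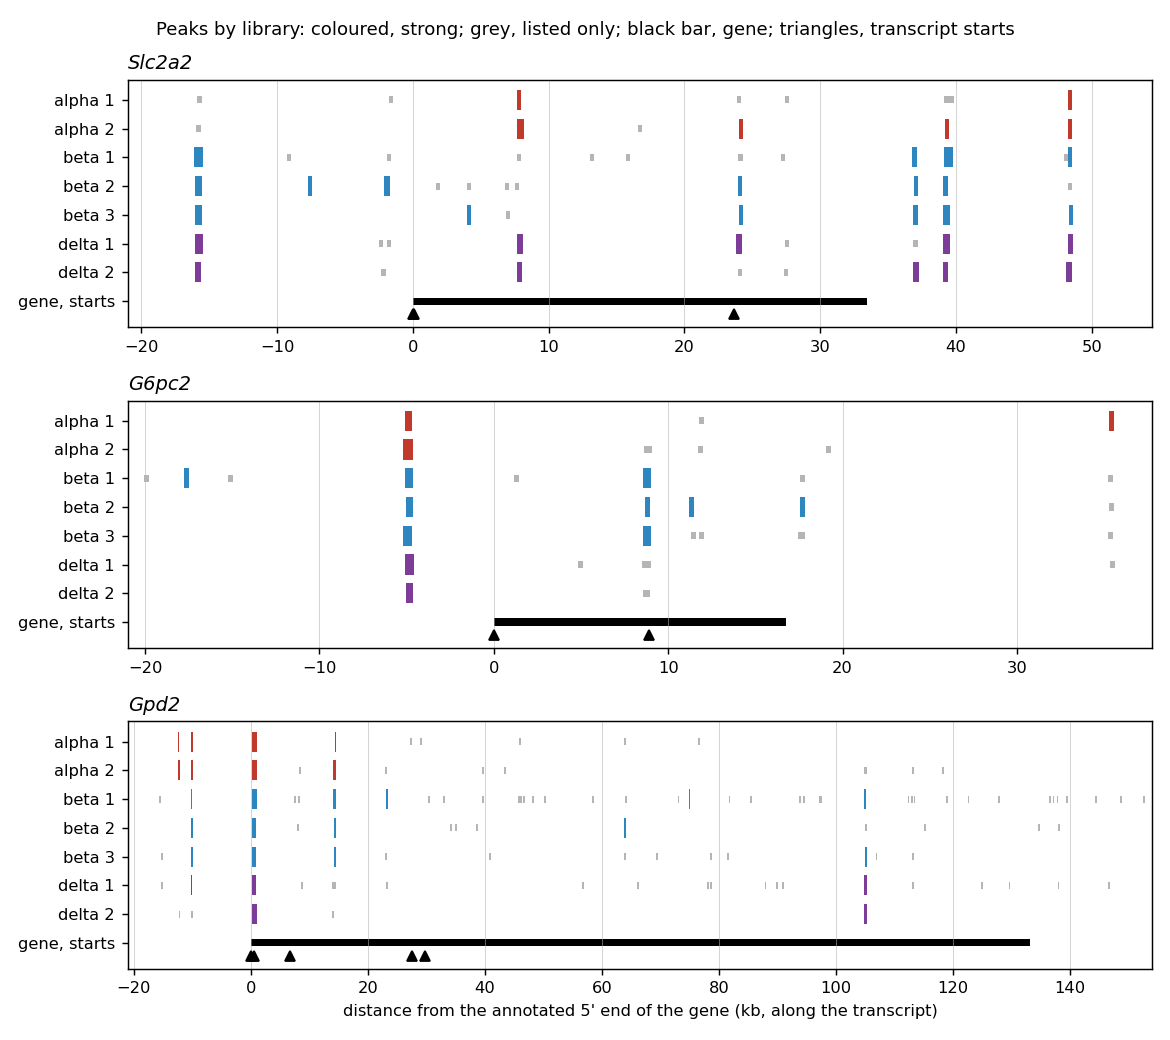
Peaks by library (rows) against the distance from the annotated 5′ end of Slc2a2, G6pc2, and Gpd2 (horizontal axis, kb along the transcript). Coloured bars are strong peaks, grey bars peaks that are only listed, black bars the genes, and triangles transcript starts, with peaks narrower than 0.3 kb drawn at that width. No peak stands at the first Slc2a2 start, and the G6pc2 start at 8.9 kb is coloured in beta rows only.

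Downstream of Slc2a2, a region 3.57 kb beyond the 3′ end, chr3:28734663-28735199, was listed in neither alpha library. Its rank was 17553, 6013, and 11984 in the beta libraries, 64774 in delta 1, and 22548 in delta 2. Of all 32460 regions strong in at least 2 libraries, 5.29% were listed in no alpha library, and the difference was not tested. At 7.91 kb inside the gene, a region over an exon, chr3:28705563-28706068, had another pattern. Its rank was 16239 and 22187 in the alpha, 12149 and 9568 in the delta, 283732 in beta 1, and 90077 in beta 2, with none listed in beta 3. It was strong in all alpha and delta libraries and in no beta library, within each lane code too. Such regions made up 2.49% of all regions strong in at least 2 libraries. The long noncoding gene 1700112D23Rik overlaps this region and all of those downstream, so a peak here cannot be given to Slc2a2 alone.

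Within Slc2a2, a region at 24.1 kb, chr3:28721725-28722206, near the start of a retained-intron transcript, varied as much within as between cell types. Its rank was 52427 and 8669 in alpha, 64114, 6485, and 6071 in beta, and 16654 and 29824 in delta cells (exact permutation test, p = 0.790). The regions 5.92 kb and 14.9 kb beyond the 3′ end were each strong in 6 libraries. The first missed alpha 1 at rank 33715, and the second missed beta 2 at rank 25440.

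Slc2a1 encodes GLUT1, the high-affinity transporter of many cell types. It lies at chr4:119108711-119137983 on the plus strand. All of its 5 transcripts begin within 1 cluster of starts. The start peak had rank 16727 and 10178 in alpha, 71725, 15807, and 33239 in beta, and 14787 and 13368 in delta cells. By the best peak within 250 bp, beta 1 and beta 3 were behind all others, while beta 2 lay among them (exact permutation test on regions listed in all libraries, p = 0.152). The best peaks of beta 2 and delta 2 begin past all annotated starts of the gene. Their peaks over its 5′ end had rank 68136 in beta 2 and 16317 in delta 2. At peaks that hold the 5′ end, all 3 beta libraries were thus behind all others, which was not tested. A region 2.81 kb upstream, chr4:119105659-119106154, was strong in all 7 libraries with ranks of 3370 to 12079, ahead of the start peak in every library. A region 0.435 kb beyond the 3′ end, chr4:119138217-119138620, was strong in all 7 as well, with ranks of 3431 to 7706, and lies at a start of the neighbour Gm12868. With strong peaks set by a -log10 q of 2 or more, the window of Slc2a1 held 4 and 4 peaks for alpha, 2, 3, and 3 for beta, and 7 and 6 for delta cells, without overlap (exact permutation test, p = 0.00952, adjusted p = 0.389). At this threshold 10.6% of 20305 genes had p under 0.05. The lists then held 25903 to 38058 peaks for beta and 41683 to 52057 for alpha and delta cells, and the part of these lengths in the counts was not tested.

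Pcx encodes pyruvate carboxylase, which makes oxaloacetate from pyruvate. It lies at chr19:4510472-4621752 on the plus strand. It has 4 starts. The first was strong everywhere, with ranks of 2946 and 5823 in alpha, 10649, 5001, and 5539 in beta, and 9050 and 5681 in delta cells. These values overlapped (exact permutation test, p = 0.505). The starts at 5.18 kb, 48.3 kb, and 83.9 kb, all with coding transcripts, had no listed peak in any library. The other shared region, chr19:4615071-4616119, strong in 6 libraries, lies at a start of Lrfn4 inside the Pcx gene body.

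Gpd2 encodes the mitochondrial glycerol-3-phosphate dehydrogenase of an NADH shuttle. It lies at chr2:57237635-57370719 on the plus strand. A peak within 250 bp of both of its first starts had rank 3097 and 2529 in alpha, 3532, 2034, and 1315 in beta, and 1321 and 2388 in delta cells, strong in all. This peak also overlaps the neighbour A930012O16Rik, which has a start near it, so it cannot be given to Gpd2 alone. The Gpd2 transcript starts further inside had no strong peak. An intron region at 14.4 kb, printed above, had rank 19216 and 7246 in alpha, 4759, 17201, and 8965 in beta, and 98005 and 69299 in delta cells. The merged region was strong in alpha and beta and only listed in delta, whose geometric mean rank was 9.14 times that of beta (exact permutation test, p = 0.0667, adjusted p = 0.443). These delta ranks belong to peaks with summits at 57251799 and 57251775, against 57252080 to 57252128 in alpha and beta. The ratio and p therefore do not compare the same peak. Over the printed stretch, delta 1 listed a peak at rank 98006 and delta 2 listed none. All of the delta libraries share a lane code with beta 2 and beta 3, which were ahead of them.

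A Gpd2 region at 105 kb, chr2:57342443-57342948, was strong in both delta libraries, with ranks of 3212 and 9811. Beta 1 had it at 7447, beta 3 at 15133, and beta 2 at 42105, so the beta libraries spanned the limit for strong peaks. Alpha 2 listed it at 34246 and alpha 1 did not. A region 12.2 kb before the first start, chr2:57225208-57225564, was the only alpha-selective region in the windows, at ranks 24848 and 18702. No beta library listed it, and delta 2 listed it at rank 72976. Alpha-selective regions made up 2.63% of all regions strong in at least 2 libraries. The first of these ranks lies just inside the limit of 25000.

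Pfkfb2 encodes a bifunctional enzyme that makes and removes fructose-2,6-bisphosphate, an activator of phosphofructokinase. It lies at chr1:130689182-130729253 on the minus strand. It had the start peaks of lowest rank among the 7 genes, in every library. At the start of 130715734 to 130715814, 3 transcripts begin, 2 of them coding, and the ranks there were 1010 and 1178 in alpha, 889, 440, and 585 in beta, and 308 and 1343 in delta cells. The cell types overlapped (exact permutation test, p = 0.552). That start lies 13.4 kb from the 5′ end of the gene record. The start at 14.7 kb, 130714575 to 130714576, is that of 7 transcripts, 5 of them coding, and had no listed peak. The first start of the gene record, at 130729253, had none either.

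A further Pfkfb2 start, at 130717238, had within 250 bp a region that overlaps the neighbour Yod1 but does not hold the start itself. This region, chr1:130717360-130717644, was strong in both delta libraries, at ranks 24067 and 24051, and in no other, with alpha 2 at 31874 and beta 3 at 79115. It was the only delta-selective region, and delta-selective regions made up 3.64% of those strong in at least 2 libraries. Both delta ranks lie close to the limit of 25000. The start lies inside another region, chr1:130716784-130717290, which was strong in alpha 1 alone, at rank 16640. Reads and peaks of Pfkfb2 and Yod1 cannot be told apart here, and Gm29427 shares the strong start.

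Ucp2 encodes a mitochondrial carrier of the uncoupling protein family. It lies at chr7:100493337-100502020 on the plus strand. Its first start, where 4 transcripts begin, had the later rank of its 2 listed starts in all 7 libraries. There the ranks were 21166 and 24735 in alpha, 26056, 73884, and 10957 in beta, and 36973 and 36850 in delta cells. The start 2.74 kb further on, of 1 coding transcript, had ranks of 6212 and 6588, of 8442, 14821, and 10311, and of 5719 and 11180. That peak held the start itself in alpha 1 and delta 2 only, and ended before it in the other libraries. In beta 3 the ranks of both starts were close, at 10957 and 10311. Its other 5 starts had no listed peak.

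**Figure D4:**
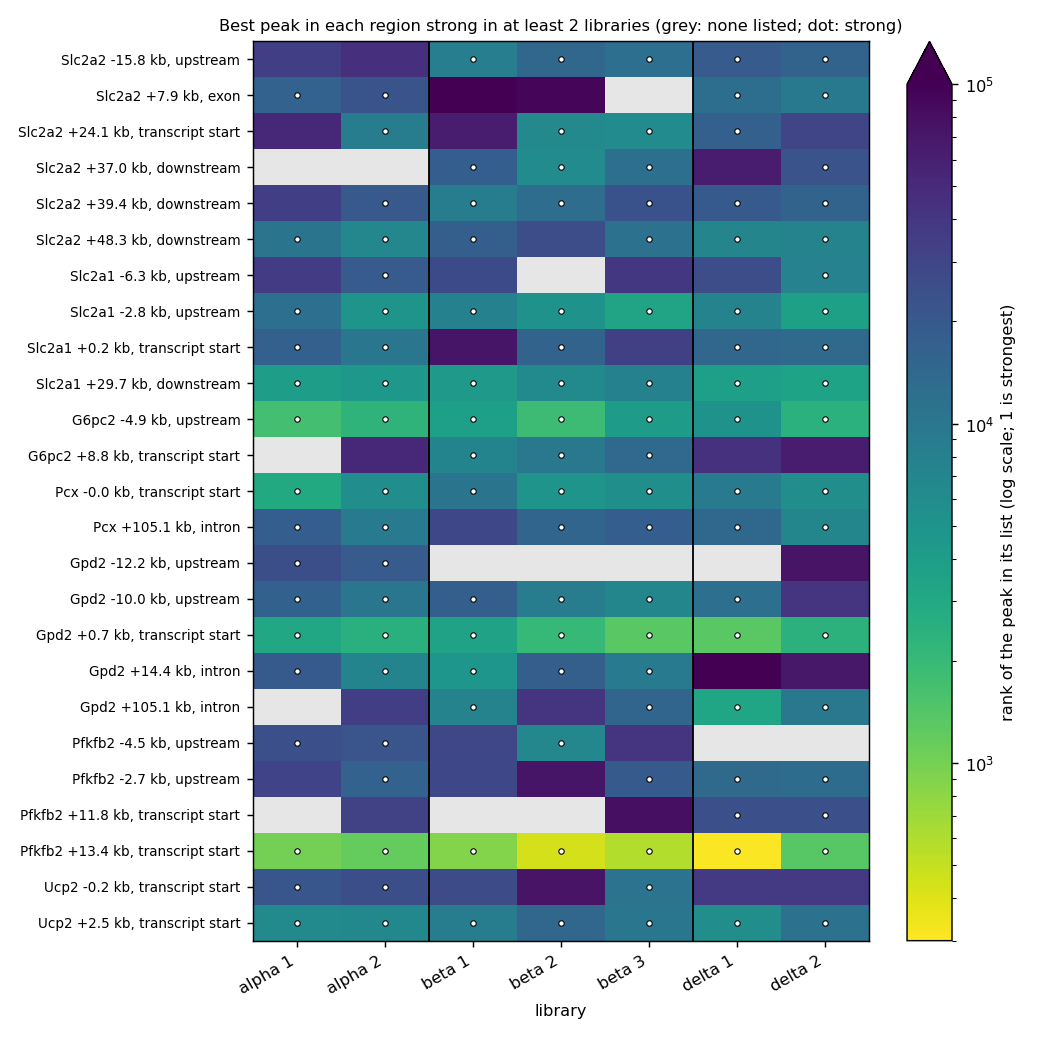
Rank of the best peak (colour, log scale) in each of the 25 regions strong in at least 2 libraries (rows, with the distance from the 5′ end of the gene) in each library (columns). Dots mark strong peaks and grey cells have none listed. Of these regions, 7 carry a dot in every column.

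Over all 7 windows, 42 regions held a strong peak, 25 in at least 2 libraries and 17 in 1. Of the 25, 7 were strong in all libraries, set beside 27% of all such regions. By place, the 42 were 10 at a transcript start, 9 in introns, 3 over exons, 13 upstream, and 7 downstream. Of the 25, 1 was alpha-selective, 1 beta-selective, and 1 delta-selective, as named above. When a selective region had to be strong in every replicate of its cell type and absent from the full lists of the others, 0 remained for each cell type.

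The wider set of 65 genes of glucose transport, phosphorylation, glycolysis, pyruvate use, and shuttles, chosen in addition to the 7, was read in the same way. A strong start peak was found in all 7 libraries at 29 of them, in any at 52, and 7 had no listed start peak. Start ranks placed beta behind all other libraries at 13 genes. These were Slc2a12, Hk1, Hk2, Slc37a4, Pfkl, Fbp1, Mpc2, Pdhb, Pdk4, Me1, Mdh1, Slc25a13, and Slc25a1. Hk1 and Hk2 encode hexokinases, Me1 malic enzyme, and Pdk4 a kinase that restrains pyruvate dehydrogenase. Some of the 13 were strong in every library. At Mdh1, the rank was 142 and 61 in alpha, 408, 243, and 167 in beta, and 84 and 90 in delta cells. At Hk1, the rank was 2102 and 3380 in alpha, 118047, 29848, and 24077 in beta, and 13826 and 15462 in delta cells. Beta was ahead at 1 gene, Gpi1, glucose phosphate isomerase, where all genes with a start peak gave 11.4% for behind and 2.42% for ahead. Alpha was ahead at 5 and behind at 5, where all genes gave 11.7% and 3.72%. Delta was ahead at 3 and behind at 0, where all genes gave 6.62% and 2.04%.

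Of the wider set, Hk2 and Mpc1, a subunit of the mitochondrial pyruvate carrier, had more strong window peaks in alpha than in any other library, and Slc2a3 had fewer, where all genes gave 3.77% and 1.64%.

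Nearest to each gene in the rank of the best start peak over the 7 libraries, among 9333 genes listed in all, were Hnrnph1 and Mtss1 for Slc2a1, Atp6v1c1 and Atf7ip for Pcx, Zc4h2 and Rb1cc1 for Gpd2, Mcm5 for Pfkfb2 after the Gm29427 that shares its peak, and Enho and 6430548M08Rik for Ucp2. The mean absolute difference of log10 rank ran from 0.0504 for Enho to 0.103 for Mcm5, apart from Gm29427. Slc2a2 and G6pc2 were not listed at a start in all libraries and were not compared.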

How the data were processed

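The cell type of each library was taken from its label. By the sources, Trimmomatic trimmed the single-end reads, Bowtie 2 placed them on mm10 with mitochondrial DNA left out, Picard marked duplicates, blacklist regions were dropped, and the authors ran MACS2 on every library by itself. The MACS2 threshold was not given in the sources used here. The deposited -log10 p and -log10 q values and the fold enrichment (a ratio of signal to local background) are the authors' MACS2 output. The depth behind a peak is unknown from the lists alone. The sources report fewer unique mapped reads for every beta library used here than for either alpha library. The delta libraries overlapped with beta in this number. The part of depth in the ranks and counts was not tested.

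Intervals repeated for several summits were counted once. Peaks were ranked by -log10 p, and peaks of different libraries sharing at least 1 bp were joined. Genes came from GENCODE vM21. The members and gene lists were chosen with earlier results of these data known, and by rule all 7 genes were named, with others only where libraries separated. The sources test reads per region with DiffBind. Lists hold no such reads, so exact permutation tests without direction were used, with Benjamini-Hochberg adjustment over all genes or regions. For beta against alpha or delta libraries the smallest p would be 0.1, and for alpha against delta 0.333. Replicate numbers did not pair libraries, with correlations of deviations from -0.029 to 0.024 for equal numbers. Steps were tested on simulated data, with Python 3.11.15, numpy 2.4.6, pandas 2.3.3, and matplotlib 3.10.9. The alternatives are in the closing section.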

Additional observations from a re-analysis of the deposited data

How the results depend on the processing

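The count of genes whose windows differed between cell types at p under 0.05, 1 as reported, was 2 at a -log10 q of at least 2, with Slc2a1 at an exact permutation p of 0.00952, and 2 without flanks, with G6pc2 at an exact permutation p of 0.0286. It was 0 with 50000 peaks per list and with all intervals, and 0 to 1 with a library left out. Pfkfb2 was then at exact permutation p values of 0.0857, 0.810, and 0.0333 to 0.200, with 0.0333 without alpha 1 and 0.150 or more without any other library. The count of regions listed in all libraries with p under 0.05, 1 as reported, was 0 to 2 with a library left out, and that of start ranks, a test added after the lists were examined, was 0 for every library left out. Without a beta library no exact permutation p can be below 0.0667. With a replicate block, whose smallest exact permutation p is 0.0556, all 3 of these counts were 0, and Pfkfb2 had an exact permutation p of 0.111. When cell types were permuted only within the sex of the pooled mice, an alternative added after the lists were examined whose smallest exact permutation p is 0.0278, the window count and the start rank count were 0, the region count was 1, and Pfkfb2 had an exact permutation p of 0.0556. Genes with a strong start peak in every library, 4 as reported, were 1 when only the 5′ end of the gene record was used, and 4 whichever library was left out. Regions strong in at least 2 libraries, 25 as reported, were 59 with all intervals and 23 to 25 with a library left out. Alpha-selective regions, 1 as reported, were 2 at a -log10 q of at least 2 and 1 to 4 with a library left out. Beta-selective regions, 1 as reported, were 0 at that q, 2 with 50000 peaks, 7 with all intervals, and 1 to 2 with a library left out, and 1 without beta 1. Delta-selective regions, 1 as reported, were 1 to 2 with a library left out. Each selective count was 0 under the stricter rule of absence from all other full lists. The number of starts with a strong peak in at least 2 replicates was 7 to 8 in alpha, 6 in beta, and 7 to 8 in delta cells with a library left out, and within 1.5 times the reported count under every other alternative run. Where leaving out a library left 1 alpha or delta library, a strong peak in that library sufficed for its selective and start counts. Apart from this relaxed rule, the causes of these changes were not tested. A list gives no reads outside peaks, so the depth needed to see an absent peak could not be computed.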
